A study of Mus musculus with 12 samples.

Results

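AP-1 is a dimeric transcription factor built from proteins of the Fos, Jun and ATF families, and its genes belong to the immediate-early genes, which cells transcribe within minutes of a stimulus without making new protein first. The levels of 10 such genes were followed in mouse kidney cortex: the Fos family (Fos, Fosb, Fosl1, Fosl2), the Jun family (Jun, Junb, Jund), the ATF family member Atf3, the zinc finger factor Egr1 and the proto-oncogene Myc. They were chosen by name, and all 10 were found among the 55487 gene identifiers of the count table. The tissue came from mice made to lack ALR (augmenter of liver regeneration, gene Gfer) in the proximal tubule, and from controls that carry both floxed ALR alleles (ALR flox/flox) without the recombinase. The knockout mice, called PT-KO, were ALR flox/flox;Ggt1-Cre, in which the Ggt1 promoter drives Cre in proximal tubule cells, so that Gfer is left intact in the other cells of the cortex. The labels name the genotypes WT and ALR knockdown; the study's methods give the alleles and a C57BL/6 background. The 4 groups of 3 libraries each were sham-operated controls (Ctrl), sham-operated knockouts (PT-KO), and both genotypes after bilateral renal ischemia of 22 min and reperfusion of 24 h (Ctrl+I/R and PT-KO+I/R, called injured controls and injured knockouts below). Each library was bulk RNA of kidney cortex, all cell types together. The comparisons ask how these factors stand 1 day after ischemia–reperfusion (I/R), and whether the loss of ALR changes that.

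Fos proteins bind DNA only as dimers with a Jun protein, whereas Jun proteins also pair with each other, and dimers with ATF or CREB family proteins prefer the cAMP response element (CRE) over the AP-1 site. MAP kinases drive the first wave of transcription through serum response factor and its ternary complex partners, and phosphorylate the proteins. Fos and Egr1 mRNA usually decay within hours, while Fosl1 (which encodes FRA-1) and Fosl2 (FRA-2) come later and are themselves AP-1 targets. In the kidney, Fos, Jun, Egr1, Atf3 and Myc are known as early responders of tubule cells to ischemia. In bulk tissue, fewer cells of a type and less RNA per cell cannot be told apart.

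The libraries held 12165089 to 23123693 counts each, and replicates of a group differed from each other by far more than counting noise. Levels are given below as CPM, the count scaled to a common library size that was adjusted by the trimmed mean of M values (TMM). Gfer itself was not lower in the knockout: it measured 12.8 ± 1.52 CPM (SD, n = 3) in Ctrl and 14.0 ± 3.68 in PT-KO, and 17.6 ± 2.34 and 22.0 ± 0.674 in injured controls and injured knockouts, with log2 differences of 0.13 and 0.32 (edgeR adjusted p = 0.761 and 0.0723), so in these libraries the genotype rests on the labels. The study reports, from separate measurements, lower ALR expression in the kidneys of PT-KO mice than in those of controls. The defining markers of proximal tubule were abundant, with sums between 12389 and 44242 CPM in every library. Xist, a transcript of the inactive X chromosome, had 22402 and 19755 counts in Ctrl libraries 1 and 2 and at most 11 in the other 10, so sex cannot be fully told apart from I/R in Ctrl+I/R against Ctrl or from genotype in PT-KO against Ctrl, and it enters the interaction through the same Ctrl libraries. The 6 knockout libraries were alike in this respect, as were the 6 injured ones.

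The promoters show which known inputs of these genes have their letters close to the start. RefSeq promoter windows (GRCm38.p6), each with 250 bases before and 50 after the RefSeq start, were found for 7 of the 10 genes. The Jund window lay upstream of the GENCODE gene model and held no GENCODE transcript start, so it is not described. The other 6 (Fos, Fosb, Fosl2, Jun, Junb, Atf3) were searched on both strands for 9 motifs. The AP-1 site TGAGTCA, the full CRE TGACGTCA, the CArG box of serum response factor, the E-box CACGTG and the EGR site GCGTGGGCG were in none of these 6 windows. They occurred in 5.20%, 1.79%, 1.63%, 7.15% and 0.612% of all 32851 windows of that length. The Fos window held the CRE core TGACGT, which is in 7.51% of all windows (and in every full CRE), and the Atf3 window held the same core on the reverse strand. The Jun window held both variant AP-1 sites for which that promoter is known, TGACATCA (3.62% of windows) and TTACCTCA (0.889%). The EGR site GCGGGGGCG, in 2.91% of windows, was in those of Fosb and Fosl2. The Fosl2 stretch lay inside an exon of a longer annotated transcript and is not shown. The 250 bases before the start of the other 4 genes with a motif are printed 5′ to 3′ on the strand of the gene, with the motifs in capitals:
Fos, chr12:85473640-85473889 (+): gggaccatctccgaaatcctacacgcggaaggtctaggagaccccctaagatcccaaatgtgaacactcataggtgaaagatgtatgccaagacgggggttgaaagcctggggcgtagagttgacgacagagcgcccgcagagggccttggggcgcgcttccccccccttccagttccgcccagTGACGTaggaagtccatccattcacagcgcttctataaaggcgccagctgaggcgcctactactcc
Fosb, chr7:19310046-19310295 (-): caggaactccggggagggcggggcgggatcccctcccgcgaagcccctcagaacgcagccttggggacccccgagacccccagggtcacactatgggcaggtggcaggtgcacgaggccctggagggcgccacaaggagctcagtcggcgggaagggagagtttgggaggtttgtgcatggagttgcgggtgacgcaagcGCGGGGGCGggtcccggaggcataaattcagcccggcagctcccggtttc
Jun, chr4:95052223-95052472 (-): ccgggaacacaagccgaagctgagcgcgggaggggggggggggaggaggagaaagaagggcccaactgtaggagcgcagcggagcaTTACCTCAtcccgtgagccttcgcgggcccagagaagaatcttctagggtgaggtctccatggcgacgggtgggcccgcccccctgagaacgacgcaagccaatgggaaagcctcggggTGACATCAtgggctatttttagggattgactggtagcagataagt
Atf3, chr1:191183334-191183583 (-): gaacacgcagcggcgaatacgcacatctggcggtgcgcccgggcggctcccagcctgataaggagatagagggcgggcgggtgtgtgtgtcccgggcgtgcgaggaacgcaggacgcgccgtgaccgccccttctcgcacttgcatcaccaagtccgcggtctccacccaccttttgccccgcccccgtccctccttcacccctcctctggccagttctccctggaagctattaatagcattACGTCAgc
Counted back from the start, the CRE core of Fos lay at -66 to -61 and that of Atf3 at -8 to -3, the Jun sites at -164 to -157 and -45 to -38, and the EGR site of Fosb at -50 to -42. Of the bases printed, 7 of Atf3 and 6 of Fosb, next to the RefSeq start, fall in an annotated exon of the gene, and the CRE core of Atf3 overlaps them. These matches describe the letters only.

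After I/R all 10 genes stood above the sham level of the same genotype on average. Among controls, 6 of the 10 passed the test as higher (edgeR quasi-likelihood test, adjusted p under 0.05): Fosl1, Fosl2, Jun, Junb, Atf3 and Myc. Over all 15567 genes tested, 19.4% were called, 11.4% higher and 7.97% lower, and the median log2 fold change was 2.08 for the 10 genes against -0.01 for all. Among knockouts, all 10 were called higher, where 65.5% of 15155 genes were called, 32.9% higher and 32.7% lower, with medians of 3.22 and 0.01. With total counts in place of TMM, the median over all genes moved by 0.12 on the log2 scale among controls (2346 genes higher and 766 lower, against 1778 and 1241) and by 0.04 among knockouts. The groups did not overlap for 7 of the 10 among controls (43.7% of all genes) and for 10 of the 10 among knockouts (70.8% of all genes). The count among controls was sensitive to every single library: it was 1, 0 or 3 without Ctrl library 1, 2 or 3, and 2, 4 or 9 without Ctrl+I/R library 1, 2 or 4. Among knockouts it stayed 10 whichever library was left out. Of the called genes, Fosl1 and Atf3 lost the call without Ctrl library 1 or 2, Fosl2 without these or Ctrl+I/R library 1, Myc without any Ctrl library or Ctrl+I/R library 1, and Jun and Junb without any library but Ctrl+I/R library 4 (adjusted p of 0.0509 to 0.138). Conversely Fosb was called without Ctrl library 1 (adjusted p = 0.0488), and Fos (0.0310), Jund (0.00888) and Egr1 without Ctrl+I/R library 4. A fit to all 12 libraries called 8 of the 10 among controls (4938 of 16168 genes), and the same fit with Xist-positive libraries coded as female called 5 (2029 genes), where Jun, Jund and Egr1 did not pass (edgeR adjusted p = 0.0630, 0.173 and 0.154). Coding sex moved the log2 fold changes among controls from 5.23 to 8.37 for Fosl1, from 1.85 to 3.42 for Fosb, from 2.80 to 4.22 for Myc and from 3.34 to 4.18 for Atf3, with the sham reference then resting on Ctrl library 3 alone.

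In sham kidneys none of these genes differed between knockouts and controls past the threshold. Fosb and Fosl1 had too few counts to be tested, and 0 of the other 8 were called by edgeR, with 2 at an unadjusted p under 0.05 (Fos and Egr1) and 0 called by DESeq2. Over all 15291 genes 0% were called by edgeR, and 458 genes by DESeq2. With sex as a covariate in the fit to all 12 libraries, edgeR called 0 of the 10 here and 0 for the interaction. In injured kidneys, 4 of the 10 were called higher in knockouts than in controls: Fosl1, Fosl2, Jund and Fosb. Over all 15281 genes 46.9% were called, 22.5% higher and 24.4% lower, and the groups did not overlap for 3 of the 10 (Fosl1, Fosl2 and Jund) and for 58.7% of all genes. The two-sided exact permutation test of log2 levels gave p = 0.1 for these 3, the smallest that 3 against 3 libraries allow, and p = 0.4 for Fosb. With total counts in place of TMM, the median over all genes moved by -0.21 (1978 genes higher and 5080 lower, against 3444 and 3725) and 2 of the 10 were called (Fosl1 and Fosl2). In the main test the median log2 difference was 0.85 for the 10 against 0.00 for all. The number called was 1, 6 (with Junb, Egr1 and Myc and without Fosb) or 3 without Ctrl+I/R library 1, 2 or 4, and 3, 2 or 2 without PT-KO+I/R library 2, 3 or 4. The difference between genotypes in the response to I/R (interaction in a fit to all 12 libraries) was called for 0 of the 10 by edgeR, with 3 at an unadjusted p under 0.05 (Fosl1, Fosl2 and Jund), while DESeq2 called these 3. Over all 16168 genes 30.6% were called, 14.3% with a larger value in knockouts and 16.4% with a smaller one. Without Ctrl+I/R library 2 the interaction was called for 4 of the 10 (Fos, Fosl2, Jund and Myc), without Ctrl+I/R library 4 for 2 (Fosl1 and Fosl2) and without PT-KO+I/R library 2 for 1 (Fosl2).

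**Figure D1:**
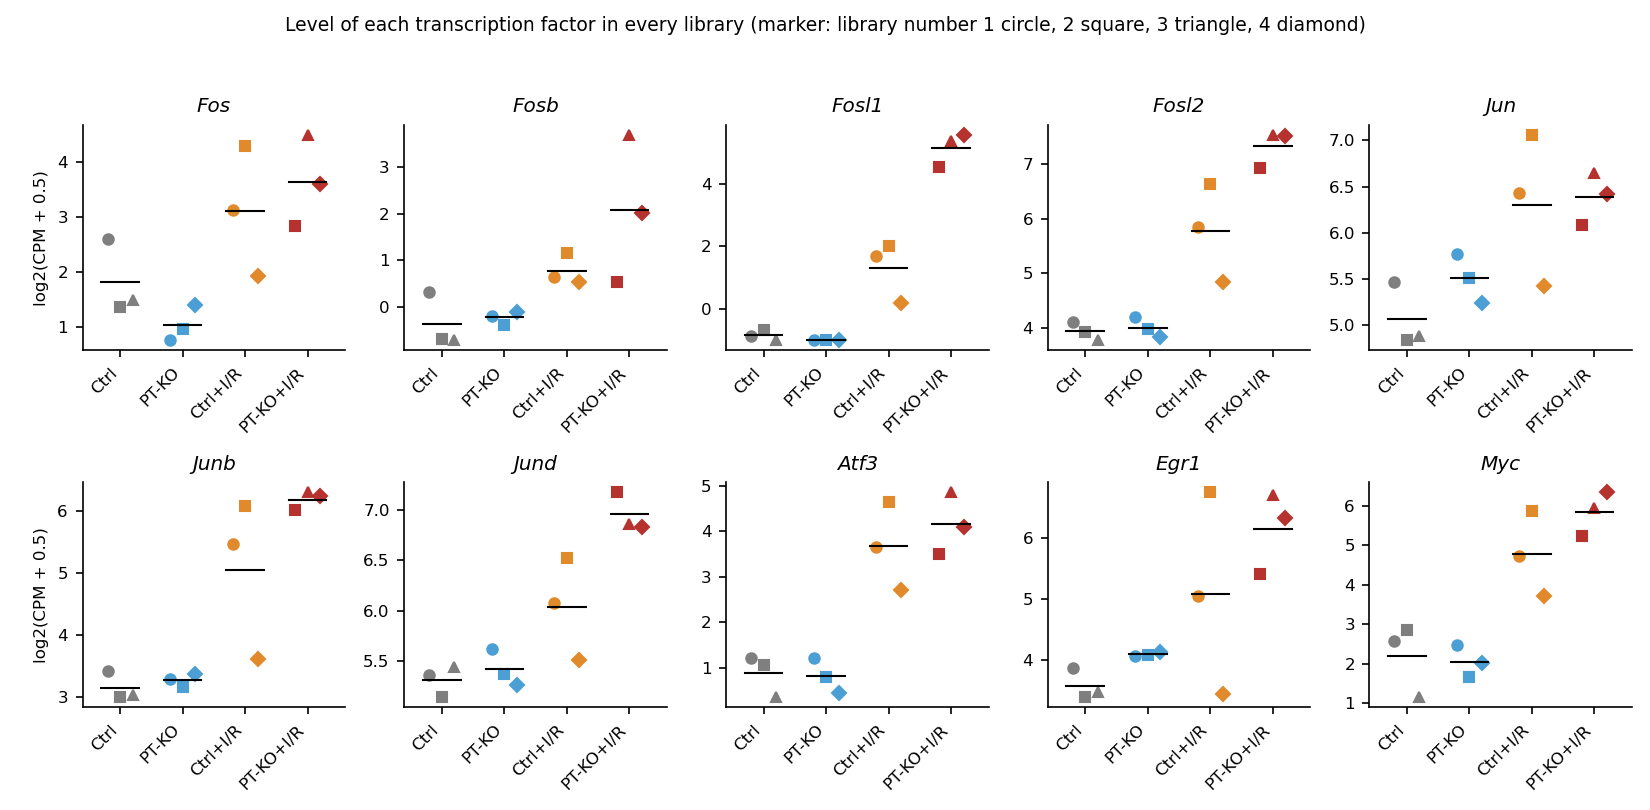
Level of each of the 10 genes, 1 panel per gene, as log2(CPM + 0.5) on the vertical axis for the 12 libraries in 4 groups; each point is a library (its number sets the marker) and each line a group mean. Fosl1 was near the floor in all 6 sham libraries and between 22.8 and 46.2 CPM in PT-KO+I/R, while Jun reached similar levels in both I/R groups.

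**Figure D2:**
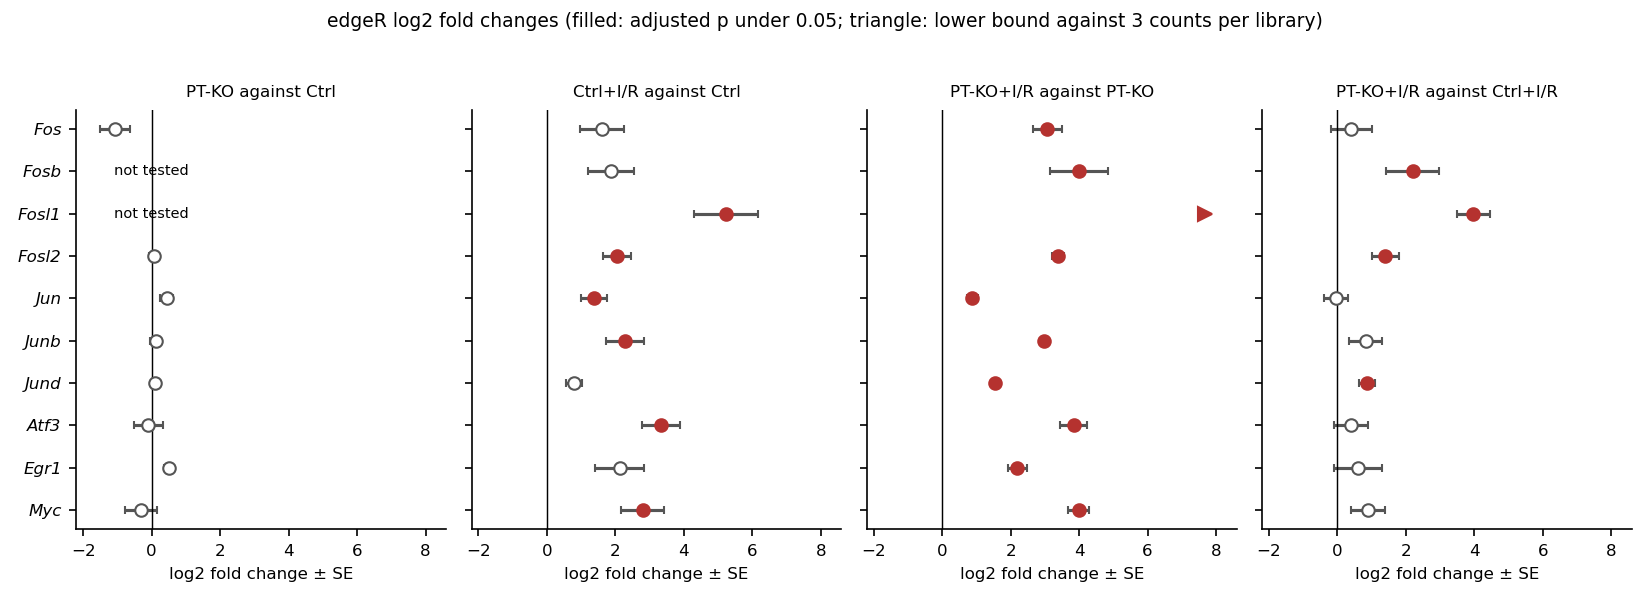
edgeR log2 fold changes (horizontal axis) with their standard errors for the 10 genes in 4 comparisons; filled symbols have an adjusted p under 0.05. The triangle for Fosl1 is a lower bound of 7.68, against 3 counts per PT-KO library, and Fosb and Fosl1 were not tested in PT-KO against Ctrl.

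Fosl1 (ENSMUSG00000024912, chr19:5447547-5455946, + strand, GRCm38) had the largest difference between the injured groups of the 10 genes. It had 1, 2 and 0 counts in Ctrl libraries 1, 2 and 3 and 0 counts in each PT-KO library. In Ctrl+I/R it had 61, 67 and 10 counts (libraries 1, 2 and 4), or 2.72, 3.50 and 0.632 CPM. In PT-KO+I/R it had 266, 918 and 716 counts (libraries 2, 3 and 4), or 22.8, 40.9 and 46.2 CPM. Every I/R library was thus above every sham library, and every PT-KO+I/R library above every Ctrl+I/R library. The ratio of Ctrl+I/R to Ctrl was 43.5 (95% counting interval 14.6 to 214, for counting error only), and the edgeR call had an adjusted p of 0.0150 (log2 5.22, and 6.15 without Ctrl library 2). Against PT-KO, whose libraries were all at 0, PT-KO+I/R was at least 205-fold higher (floor of 3 counts per library, edgeR adjusted p = 1.71e-06). Compared with injured controls, Fosl1 was 15.6-fold higher in injured knockouts (log2 3.96 ± 0.49 SE, edgeR adjusted p = 0.000738), and this call held under each alternative run, with adjusted p up to 0.0270. The interaction had an adjusted p of 0.103 in edgeR and 0.00192 in DESeq2. Fosl1 shares 2767 bases with Ccdc85b on the opposite strand, which had 157 to 270 counts per library, and whether the counting used strand is not given in the sources used here.

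Fosl2 (ENSMUSG00000029135, chr5:32135801-32157842, +) had at least 13.2 CPM in every sham library, and rose further after I/R. It measured 16.8, 14.7 and 13.2 CPM in Ctrl and 17.9, 15.2 and 13.8 CPM in PT-KO. After I/R it measured 57.0, 98.7 and 28.1 CPM in Ctrl (libraries 1, 2 and 4) and 122, 183 and 181 CPM in PT-KO (libraries 2, 3 and 4). The 4 sets fell into 3 tiers without overlap: both sham groups, Ctrl+I/R, and PT-KO+I/R. The rise was 4.11-fold among controls (edgeR adjusted p = 0.0193) and 10.3-fold among knockouts (adjusted p = 2.02e-07). PT-KO+I/R stood 2.64-fold above Ctrl+I/R (log2 1.40 ± 0.39 SE, edgeR adjusted p = 0.0201). Leaving out Ctrl+I/R library 1 (adjusted p = 0.0690), PT-KO+I/R library 3 (0.0638) or PT-KO+I/R library 4 (0.0686) ended this call, and the interaction missed the threshold (log2 1.34, edgeR adjusted p = 0.0509).

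Fos (ENSMUSG00000021250, chr12:85473890-85477273, +), the founding family member, overlapped between the genotypes after I/R. It measured 5.58, 2.08 and 2.33 CPM in Ctrl and 1.20, 1.45 and 2.15 CPM in PT-KO. After I/R it measured 8.22, 19.0 and 3.29 CPM in Ctrl and 6.59, 21.8 and 11.6 CPM in PT-KO. Ctrl library 1 lay above Ctrl+I/R library 4, so the control groups overlapped, whereas the knockout groups did not. The rise of 8.39-fold among knockouts passed (edgeR adjusted p = 0.000137), and the 3.04-fold difference among controls did not (log2 1.60, adjusted p = 0.110). Leaving out Ctrl library 1 gave a log2 value of 2.21 and leaving out Ctrl+I/R library 2 gave 0.82, neither of which passed, while DESeq2 called the difference among controls (adjusted p = 0.0273). Between the injured groups the log2 difference was 0.41 ± 0.60 (SE, edgeR adjusted p = 0.604).

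Fosb (ENSMUSG00000003545, chr7:19302696-19310051, -), whose truncated splice form is known for its long life, was near the floor in sham kidneys, and most of its counts after I/R came from a single library. It measured 0.754, 0.122 and 0.111 CPM in sham controls and 0.379, 0.269 and 0.429 CPM in sham knockouts. After I/R the values were 1.07, 1.72 and 0.949 CPM in controls and 0.941, 12.4 and 3.55 CPM in knockouts. PT-KO+I/R library 3 held 278 of the counts, against 11 and 55 in libraries 2 and 4. Fosb rose 16.0-fold among knockouts (edgeR adjusted p = 0.00201, with a log2 fold change of 2.66 when PT-KO+I/R library 3 was left out) and missed the threshold among controls (adjusted p = 0.0877). The injured groups overlapped, yet edgeR called Fosb higher in the knockouts (log2 2.20 ± 0.78 SE, adjusted p = 0.0486). This call was lost without PT-KO+I/R library 3 (log2 0.88, adjusted p = 0.280), without PT-KO+I/R library 4 (adjusted p = 0.0732), and likewise without any of the Ctrl+I/R libraries 1, 2 and 4 (adjusted p = 0.133, 0.0537 and 0.105).

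Jun (ENSMUSG00000052684, chr4:95049034-95052222, -), whose protein is the classical partner of Fos, had similar levels in both injured groups. It measured 43.7, 28.0 and 28.8 CPM in Ctrl and 54.0, 45.1 and 37.2 CPM in PT-KO, with overlapping groups. After I/R it measured 85.4, 133 and 42.3 CPM in Ctrl and 67.4, 99.4 and 85.1 CPM in PT-KO. All of the PT-KO+I/R values lay within the range of Ctrl+I/R, and the log2 difference was -0.05 ± 0.35 (SE, edgeR adjusted p = 0.923). The rise was 2.60-fold among controls (edgeR adjusted p = 0.0452, with Ctrl+I/R library 4 below Ctrl library 1) and 1.85-fold among knockouts (adjusted p = 0.000827). Jun overlaps the antisense gene Junos (12 to 24 counts per library).

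Junb (ENSMUSG00000052837, chr8:84974484-84978718, -), a weaker activator than Jun in many settings, had larger fold changes than Jun after I/R. It measured 10.2, 7.46 and 7.65 CPM in sham controls and 9.21, 8.40 and 9.82 CPM in sham knockouts. After I/R the values were 43.7, 67.0 and 11.8 CPM in controls and 63.9, 78.3 and 74.9 CPM in knockouts. Every I/R library lay above every sham library, and Ctrl+I/R library 2 lay within the PT-KO+I/R range. The rise was 4.85-fold among controls (edgeR adjusted p = 0.0308) and 7.89-fold among knockouts (adjusted p = 5.11e-08), and the difference between the injured groups did not pass (log2 0.82 ± 0.48 SE, adjusted p = 0.194) except when Ctrl+I/R library 2 was left out (log2 1.35, adjusted p = 0.0336). Junb shares 351 bases with Prdx2 on the opposite strand, an abundant gene with 1569 to 3540 counts per library.

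Jund (ENSMUSG00000071076, chr8:70698949-70700616, +), the family member that most tissues express without a stimulus, had, with Jun, the smallest fold changes after I/R. It measured 40.7, 34.8 and 42.9 CPM in sham controls and 48.7, 40.8 and 37.8 CPM in sham knockouts. After I/R the values were 66.8, 91.5 and 45.1 CPM in controls and 144, 116 and 114 CPM in knockouts. All PT-KO+I/R libraries lay above all others. The rise was 2.92-fold among knockouts (edgeR adjusted p = 3.44e-06), and the 1.72-fold difference among controls missed the threshold (adjusted p = 0.0545). PT-KO+I/R stood 1.83-fold above Ctrl+I/R (log2 0.87 ± 0.23 SE, edgeR adjusted p = 0.0161). That call was lost without Ctrl+I/R library 1 (adjusted p = 0.0562), without PT-KO+I/R library 2 (0.0512) and with total counts in place of TMM (0.0541). Jund shares 919 bases with the antisense gene Gm11175, which had 5 to 90 counts per library.

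Atf3 (ENSMUSG00000026628, chr1:191170296-191218039, -), a stress-induced factor that can repress its own and other CRE-driven promoters, rose in both genotypes. It measured 1.81, 1.59 and 0.776 CPM in sham controls and 1.83, 1.24 and 0.859 CPM in sham knockouts. After I/R the values were 12.1, 24.3 and 6.01 CPM in controls and 10.8, 28.4 and 16.5 CPM in knockouts. Sham and injured libraries did not overlap, and the injured groups overlapped. The rise was 10.1-fold among controls (log2 3.34, edgeR adjusted p = 0.0128, and log2 2.73 without Ctrl+I/R library 2) and 14.3-fold among knockouts (adjusted p = 1.73e-05), with a log2 difference between the injured groups of 0.40 ± 0.49 (SE, adjusted p = 0.527).

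Egr1 (ENSMUSG00000038418, chr18:34859823-34864984, +), the classical serum-response zinc finger factor, varied widely within Ctrl+I/R (SD 51.2 CPM, n = 3). It measured 14.0, 9.91 and 10.6 CPM in Ctrl and 16.2, 16.4 and 16.9 CPM in PT-KO. These groups did not overlap (21.0% of all genes tested), but the 1.43-fold difference did not pass (edgeR adjusted p = 0.207). After I/R Egr1 measured 32.5, 108 and 10.3 CPM in Ctrl and 41.9, 104 and 80.1 CPM in PT-KO, so that Ctrl+I/R library 4 was still at the sham level. The rise was called among knockouts (4.58-fold, edgeR adjusted p = 5.88e-05) and not among controls (log2 2.12, adjusted p = 0.0750). Among controls the log2 value was 0.93 without Ctrl+I/R library 2, which did not pass, while it was 2.60 and passed without Ctrl+I/R library 4 (adjusted p = 0.0111).

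Myc (ENSMUSG00000022346, chr15:61985391-61990374, +), a driver of ribosome synthesis and growth, is not an AP-1 protein but shares the immediate-early kinetics. It measured 5.43, 6.67 and 1.72 CPM in sham controls and 5.05, 2.64 and 3.56 CPM in sham knockouts. After I/R the values were 25.9, 57.4 and 12.6 CPM in controls and 36.9, 60.3 and 80.3 CPM in knockouts. Every I/R library lay above every sham library. The rise was 6.98-fold among controls (log2 2.80, edgeR adjusted p = 0.0267, and log2 2.10 without Ctrl+I/R library 2) and 15.9-fold among knockouts (adjusted p = 2.75e-06), and the log2 difference between the injured groups was 0.89 ± 0.49 (SE, adjusted p = 0.170). When Ctrl+I/R library 2 was left out, that difference was 1.59 and was called (adjusted p = 0.00929).

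Levels of different genes can be set side by side only per length, so CPM was divided by the kilobases of annotated exon. On that scale Jund had the highest mean in each of the 4 groups, from 23.6 ± 2.52 CPM per kb (SD, n = 3) in Ctrl to 74.6 ± 10.2 in PT-KO+I/R. In Ctrl the order went on with Jun (10.5 ± 2.78), Junb (3.66 ± 0.653), Egr1 (2.57 ± 0.492), Myc (1.69 ± 0.948), Fosl2 (1.54 ± 0.184), Fos (1.42 ± 0.830), Atf3 (0.646 ± 0.253), Fosb (0.0527 ± 0.0589) and Fosl1 (0.0283 ± 0.0303). Neighbours from Egr1 to Fos in this order overlapped, as did Fosb and Fosl1. In PT-KO+I/R, Jund was followed by Junb (31.4 ± 3.26), Jun (26.3 ± 5.02), Myc (21.8 ± 8.00), Fosl1 (18.0 ± 6.04), Egr1 (16.8 ± 7.01), Fosl2 (16.7 ± 3.63), Atf3 (8.63 ± 4.18), Fos (5.66 ± 3.29) and Fosb (0.900 ± 0.960). Fosl1 thus went from the last rank in both sham groups to the fifth in PT-KO+I/R, and from Junb down to Fos each neighbour overlapped the next. In Ctrl+I/R Fosl1 was ninth (1.12 ± 0.729), apart from Fosb below it and overlapping Fos above it.

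**Figure D3:**
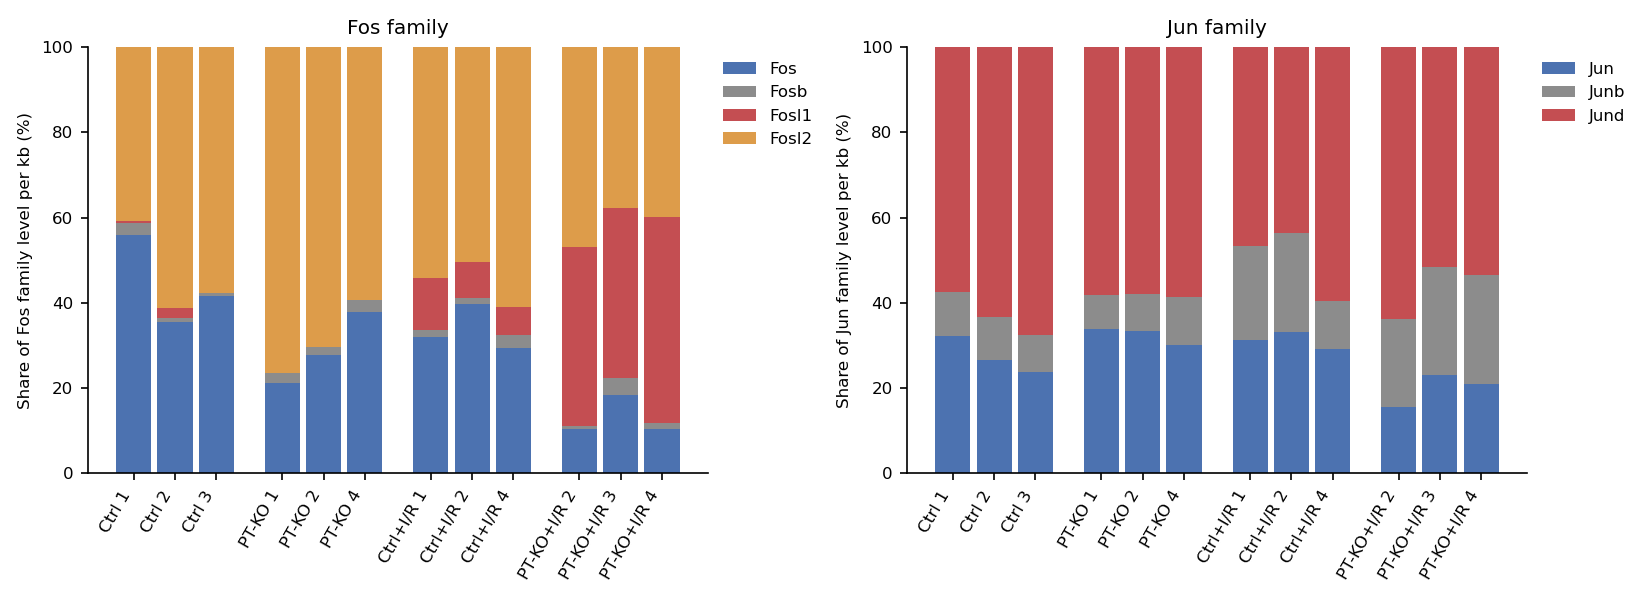
Share of each gene in the summed level per kb of the Fos family (left) and the Jun family (right), in percent on the vertical axis, with 1 stacked bar for each of the 12 libraries. Fosl1 made up 40.0% to 48.4% of the Fos family in PT-KO+I/R and 6.52% to 12.3% in Ctrl+I/R.

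Within a library, shares of a family do not depend on the scaling between libraries. Fosl1 made up 12.3%, 8.50% and 6.52% of the Fos family in Ctrl+I/R (libraries 1, 2 and 4) and 41.9%, 40.0% and 48.4% in PT-KO+I/R (libraries 2, 3 and 4), means of 9.11 ± 2.93% and 43.4 ± 4.40% (SD, n = 3). These groups did not overlap, which in a two-sided exact permutation test of 3 against 3 gives p = 0.1, the smallest such a test allows. The share of Fos was 32.1%, 39.8% and 29.3% in Ctrl+I/R and 10.5%, 18.4% and 10.5% in injured knockouts, and the mean share of Fosl2 was 55.1 ± 5.39% and 41.5 ± 4.88%, again without overlap (exact permutation p = 0.1 each). The shift came with a larger family total: 10.9, 20.3 and 4.77 CPM per kb in Ctrl+I/R, and 26.7, 50.3 and 46.9 in PT-KO+I/R. Without division by length the Fosl1 share was 2.90% and 16.6%, a measure added after the data were seen.

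In the Jun family it was Jun whose share was lower in injured knockouts: 19.9 ± 3.86% in PT-KO+I/R against 31.2 ± 1.96% in Ctrl+I/R (SD, n = 3), without overlap (exact permutation p = 0.1, the smallest possible). Jund (56.3 ± 6.58% against 49.96 ± 8.42%) and Junb (23.8 ± 2.82% against 18.9 ± 6.60%) overlapped between the groups. The Junb share was 9.67 ± 0.846% in Ctrl and 9.23 ± 1.62% in PT-KO, with every sham library below every I/R library. The summed Jun family level was 127 to 135 CPM per kb in PT-KO+I/R and 45.4 to 126 in Ctrl+I/R.

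**Figure D4:**
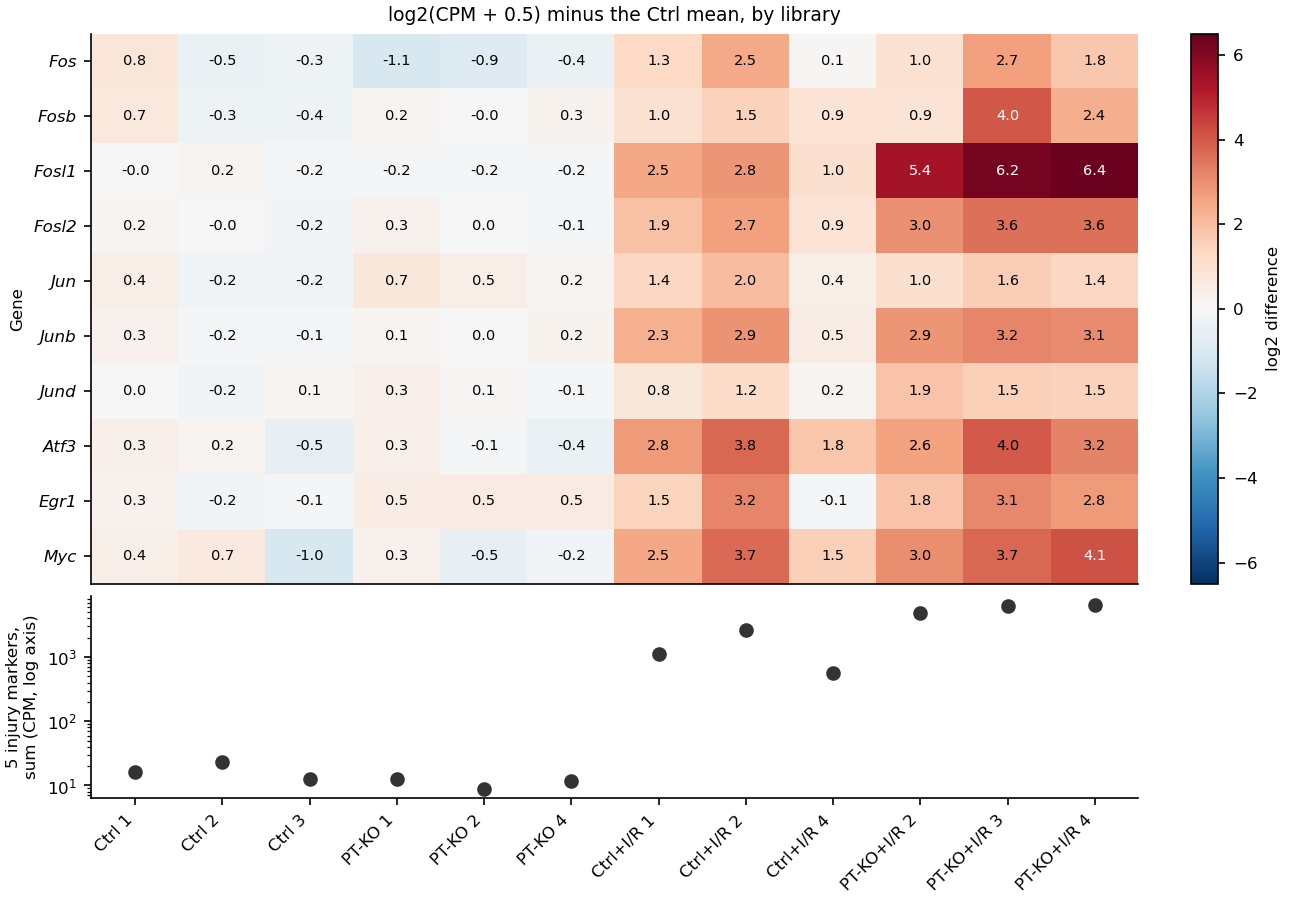
Top, log2(CPM + 0.5) of each gene minus its mean over the Ctrl libraries, for each of the 12 libraries (columns; colour scale at right). Bottom, the summed CPM of 5 injury markers (Havcr1, Lcn2, Krt20, Sox9, Vcam1) in the same libraries on a log axis: Ctrl+I/R library 4 had the lowest marker sum of the I/R libraries (571 CPM) and the lowest level of its group in all 10 genes.

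Libraries of an injured group moved together across the 10 genes. Ctrl+I/R library 2 was the highest and library 4 the lowest of the 3 in 10 of the 10 genes. In PT-KO+I/R, library 2 was the lowest in 9 of the 10, the exception being Jund. The mean log2 difference from Ctrl over the 10 genes was 1.80, 2.63 and 0.72 in Ctrl+I/R libraries 1, 2 and 4, and 2.35, 3.36 and 3.02 in PT-KO+I/R libraries 2, 3 and 4. Summed injury markers (Havcr1, Lcn2, Krt20, Sox9, Vcam1) gave the same order among controls: 1109, 2669 and 571 CPM. In PT-KO+I/R they summed to 4850, 6168 and 6364 CPM, above all Ctrl+I/R libraries, while the sham libraries held 8.89 to 23.6 CPM. Between the injured groups 4 of these 5 markers were called higher in knockouts and Vcam1 lower (it fell by 1.35 on the log2 scale). Marker lists of other cells moved too. The 8 neutrophil markers summed to 9.49 to 41.6 CPM in Ctrl+I/R, 54.8 to 82.9 in PT-KO+I/R and 0.920 to 2.71 in the sham groups, where Ly6g, Mpo and Elane had no count, as Mpo had none in Ctrl+I/R and Elane none in PT-KO+I/R. All 5 neutrophil markers with enough counts to test were called higher after I/R in either genotype. Only 1 of the 8 had enough counts to test between the sham groups. Most of the 5 thus entered the test through the injured libraries and could hardly come out lower. Between the injured groups 3 of 5 were called higher in knockouts and 0 lower, with log2 differences from -0.27 to 3.34. The 8 macrophage and monocyte markers summed to 137 to 261 CPM in Ctrl+I/R and 56.8 to 63.6 in PT-KO+I/R, with 7 of 8 called lower and 1 (Cd68) higher in the latter, and 87.1 to 104 and 89.9 to 95.1 in Ctrl and PT-KO. The 5 fibroblast and mural cell markers summed to 519 to 618 CPM in Ctrl+I/R, 162 to 258 in PT-KO+I/R and 95.9 to 192 in the sham groups. The 6 lymphocyte markers summed to 4.93 to 14.0 CPM in Ctrl+I/R, 0.267 to 0.903 in PT-KO+I/R and 2.87 to 8.87 in the sham groups. The 5 endothelial markers summed to 355 to 359 CPM in PT-KO+I/R and 267 to 308 in the other libraries, and the 5 erythroid markers to 41.9 to 49.5 in PT-KO+I/R, 82.1 to 215 in Ctrl+I/R and 48.2 to 241 in the sham groups. The 6 markers of thick ascending limb and distal tubule summed to 1666 to 4142 CPM in the injured libraries and 5614 to 7636 in the sham ones, and the 6 of collecting duct to 109.9 to 324 and 307 to 422. The 4 podocyte markers summed to 349.6 to 409 CPM in the injured and 366 to 612 in the sham libraries. The 10 proximal tubule markers summed to 21429 to 36977 CPM in sham controls, 34703 to 44242 in sham knockouts, 12389 to 20612 in injured controls and 16960 to 18496 in injured knockouts. Of these 10, 0 were called higher and 4 lower after I/R in controls, and 0 and 10 in knockouts. Although the sums of the injured groups overlapped, 6 of the 10 were called lower in injured knockouts than in injured controls and 1 (Kap) higher, with a median log2 difference of -1.30, and 6 were called lower in the interaction. The part of these cell markers and of the degree of injury in the results on the 10 genes was not tested.

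For each of the 10 genes, the 2 genes with the most similar profile were found among 11227 with a mean of at least 5 CPM, by the root mean square difference of log2 values relative to Ctrl over the 12 libraries. Jund was matched most closely, by Cd151 (0.14) and Pmepa1 (0.16), and Fosl2 by Klf6 (0.19), itself an immediate-early factor, and S100a10 (0.21). Junb was nearest to Anxa2 and Osmr (0.29 each), Jun to Usp43 and Sptlc2 (0.30 and 0.31), and Atf3 to Hk2 and Ccn1 (0.29 each). Myc was nearest to Cldn4 and Ccn1 (0.37 and 0.40), Fosl1 to Akap12 and Cd14 (0.41 and 0.50), Egr1 to Klf5 and Spred3 (0.42 and 0.47), and Fos to Arid5a and Slc7a5 (0.50 and 0.54), while Apold1 was among the 2 nearest to Fosb (0.60). Ccn1, which encodes a matrix protein of the immediate-early class, was thus near both Atf3 and Myc.

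**Figure D5:**
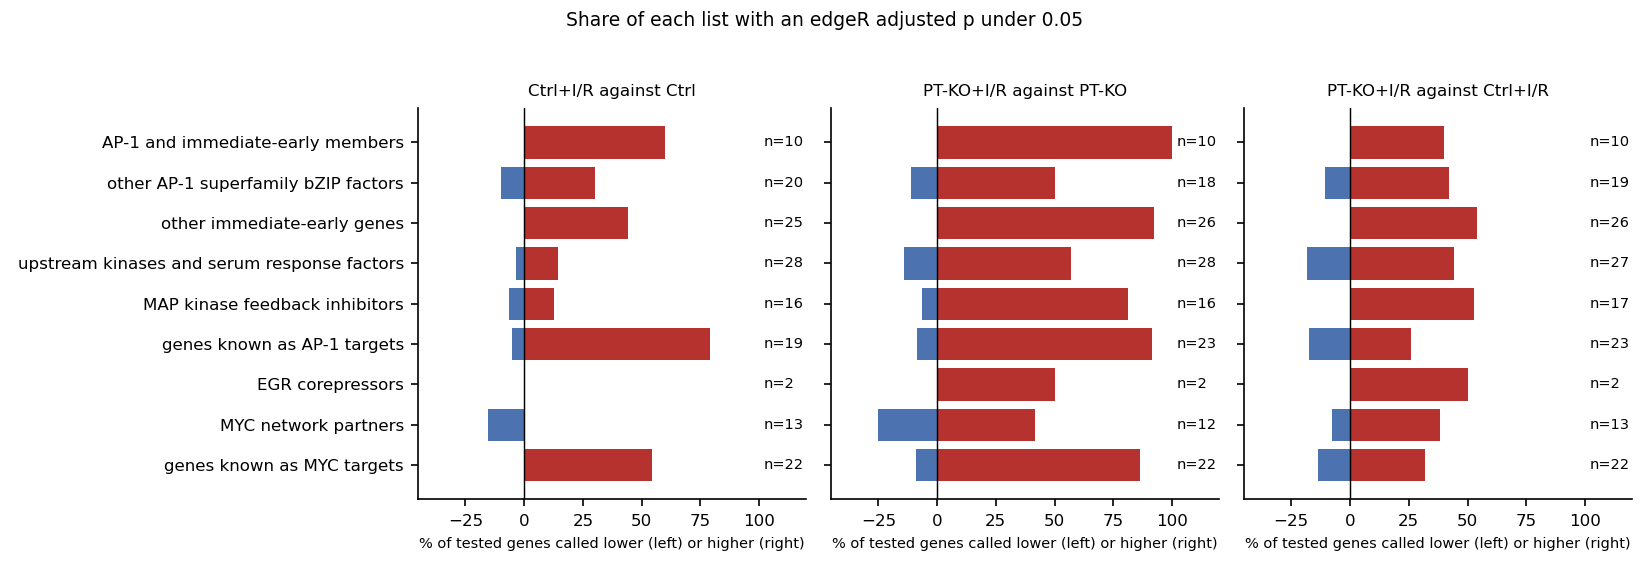
Percent of the tested genes of each list (n at right) that edgeR called higher (to the right of 0) or lower (to the left) in 3 comparisons. The AP-1 targets were called higher in 15 of 19 among controls, and other immediate-early genes in 24 of 26 among knockouts. Of the 24 AP-1 targets, 14 had enough counts to test between the sham groups.

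Other factors of the bZIP class, which includes the dimer partners of AP-1, split in direction. The counts of this and the next lists are to be read against all genes, of which 11.4% were called higher and 7.97% lower after I/R among controls, 32.9% and 32.7% among knockouts, and 22.5% and 24.4% in injured knockouts against injured controls. Of 20 tested among controls 6 were called higher and 2 lower after I/R (edgeR), and of 18 tested among knockouts 9 and 2, with median log2 fold changes of 0.03 and 0.41. Maff, a small Maf protein, rose in both (log2 3.56 and 4.79) and was higher in injured knockouts than in injured controls (log2 2.01, adjusted p = 0.00502). Creb5, a relative of ATF2, rose in both genotypes (log2 3.17 and 2.97, the former 2.56 without Ctrl+I/R library 2) and gave a log2 difference of -0.19 between the injured groups (adjusted p = 0.759). Cebpb, which encodes an acute-phase factor, rose in both (log2 1.95 and 2.90) and was higher in injured knockouts (log2 1.68, adjusted p = 0.00511). In injured kidneys, 8 of 19 were called higher in knockouts and 2 lower.

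Among other immediate-early genes, 11 of 25 tested were called higher after I/R and 0 lower in controls, and 24 of 26 and 0 in knockouts (median log2 0.68 and 1.71). In injured kidneys 14 of 26 were called higher in knockouts and 0 lower. Egr2, a relative of Egr1, rose in both genotypes (log2 3.66 and 3.51) and gave a log2 difference of -0.28 between the injured groups (edgeR adjusted p = 0.691). Ccn1 rose likewise (log2 3.07 and 3.33). Among controls, Egr2 gave 2.97 and Ccn1 2.26 without Ctrl+I/R library 2, and Egr2 gave 4.49 without Ctrl library 1, where its call was lost (adjusted p = 0.0586), as it was without Ctrl library 2 or Ctrl+I/R library 1. Ptgs2, which encodes the inducible cyclooxygenase, measured 2.97 ± 2.72 CPM (SD, n = 3) in injured controls and 22.1 ± 12.6 in injured knockouts (log2 difference 2.88, edgeR adjusted p = 0.0105, and log2 3.81 without Ctrl+I/R library 2). Klf6 measured 169 ± 108 CPM and 415 ± 91.1 (log2 1.30, edgeR adjusted p = 0.0370, and log2 1.89 without Ctrl+I/R library 2), a call that was lost without Ctrl+I/R library 1 (adjusted p = 0.113), PT-KO+I/R library 3 (0.0844) or PT-KO+I/R library 4 (0.118). Ppp1r15a, the phosphatase subunit that restores translation after stress, gave a log2 fold change of 0.30 among controls (adjusted p = 0.407) and rose among knockouts (log2 2.41, adjusted p = 1.17e-07), with 14.2 ± 4.17 CPM in injured controls and 68.9 ± 8.42 in injured knockouts.

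The kinases and serum response factors upstream of these genes were called higher in 4 of 28 and lower in 1 after I/R in controls (edgeR), against 16 and 4 of 28 among knockouts. The shares among controls were near those of all genes. Mapk10 fell in both genotypes (it fell by 1.53 and by 1.22 on the log2 scale), and Mapk11, a p38 kinase gene, rose in both (log2 1.33 and 0.79). Among knockouts, the call of Mapk10 was lost without PT-KO library 1 or 4 or PT-KO+I/R library 4 (adjusted p of 0.0677 to 0.0741), and that of Mapk11 without PT-KO library 1 or 2 or PT-KO+I/R library 3 or 4 (adjusted p of 0.0620 or more). DESeq2 called neither there (adjusted p = 0.0854 and 0.0508), and without a low-count filter Mapk10 was not called in either genotype (edgeR adjusted p = 0.0650 among controls and 0.0882 among knockouts). Among controls the call of Mapk10 was also lost without any library but Ctrl+I/R library 4 (adjusted p of 0.0611 to 0.128), and that of Mapk11 without Ctrl library 1 or 2 or Ctrl+I/R library 1 (0.0667 to 0.0758). Map2k6, a kinase of p38, measured 13.7 ± 5.61 CPM (SD, n = 3) in injured controls and 5.23 ± 1.02 in injured knockouts (edgeR adjusted p = 0.00912). Map3k8, which activates ERK, was higher in injured knockouts, with 7.41 ± 0.723 CPM against 2.17 ± 0.840 (adjusted p = 0.00262). Of the feedback inhibitors of MAP kinases, 2 of 16 were called higher and 1 lower among controls and 13 and 1 of 16 among knockouts, and between the injured groups 9 of 17 were called higher in knockouts and 0 lower. Dusp5, a nuclear ERK phosphatase, measured 5.18 ± 3.01 CPM in injured controls and 41.3 ± 9.84 in injured knockouts (log2 2.98, adjusted p = 0.000816). Dusp8, a phosphatase of JNK and p38, rose in both genotypes (log2 2.80 and 2.67, the former 2.18 without Ctrl+I/R library 2) and gave a log2 difference of -0.49 between the injured groups (adjusted p = 0.378). Without Ctrl+I/R library 4 it was called lower in injured knockouts (log2 -0.87, edgeR adjusted p = 0.0335). Errfi1, an inhibitor of the EGF receptor, fell by 0.59 on the log2 scale among controls and rose by 0.96 among knockouts (adjusted p = 0.0413 and 2.30e-05). The call of Errfi1 among controls was lost whichever library was left out, with adjusted p from 0.0624 to 0.138.

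Genes known as AP-1 targets were mostly higher after I/R: 15 of 19 tested were called higher and 1 lower (Mmp13) among controls, and 21 of 23 and 2 (Mmp13 and Ccnd1) among knockouts, with a median log2 fold change of 2.58 among controls against -0.01 for all genes. Only 14 of the 24 listed had enough counts to test between the sham groups. Some thus entered the I/R tests only through the injured libraries and could hardly come out lower, so these counts are no measure of the list. Timp1, the inhibitor of matrix metalloproteinases, measured 27.1 ± 15.7 CPM (SD, n = 3) in injured controls and 21.4 ± 1.03 in injured knockouts, against a single count in the 3 PT-KO libraries (ratio 1086, 95% counting interval 194 to 42921). Lif, a cytokine of the interleukin-6 family, rose in both genotypes (log2 5.16 and 5.92, edgeR adjusted p = 0.0127 and 4.79e-05), with 4.26 among controls without Ctrl+I/R library 2 and 6.53 among knockouts without PT-KO library 1. Il6 had 1 count in the 3 Ctrl libraries together and 0 in those of PT-KO, and injured knockouts were at least 55.8-fold above sham knockouts (floor of 3 counts per library). Between the injured groups, 6 of 23 were called higher in knockouts and 4 lower, with a median log2 difference of 0.44. These shares were near the 22.5% and 24.4% of all genes. Those higher included Mmp10, Plaur, Hmox1 and Itga5, and those lower were Mmp13, Ccl2, Ccnd1 and Vim, of which Mmp10 falls under the rule for named genes and the rest were named after their values were seen. Mmp10, a stromelysin, had 55 counts in injured knockouts and 2 in injured controls (ratio 31.8, 95% counting interval 8.38 to 269).

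Of the corepressors of EGR proteins, Nab1 was higher in injured knockouts (96.3 ± 10.8 CPM, SD, n = 3) than in injured controls (53.5 ± 4.17, edgeR adjusted p = 0.00116), while Nab2, the other member of that list, gave a log2 difference of -0.15. Partners of MYC and MAX split in direction: 0 of 13 tested were called higher and 2 lower after I/R among controls (Mxd1 and Mxd4, edgeR), and 5 and 3 of 12 among knockouts. Mxd4, a repressor that competes for MAX, was lower after I/R in controls (it fell by 0.41 on the log2 scale, adjusted p = 0.0418) and higher in knockouts (log2 0.29, adjusted p = 0.0109). Mxd1 fell by 0.59 on the log2 scale among controls (adjusted p = 0.0150). Mlxip, which encodes the glucose sensor MondoA, rose among knockouts (log2 1.11) and gave -0.04 among controls, and its dimer partner Mlx fell by 0.86 among knockouts (edgeR adjusted p = 6.70e-05). Genes known as MYC targets were called higher in 12 of 22 and lower in 0 among controls, and in 19 and 2 of 22 among knockouts. Nop58, a ribosomal RNA methylation factor, and Cad, of pyrimidine synthesis, rose in both genotypes (log2 1.23 and 1.33 for Nop58, 1.19 and 1.24 for Cad). Tert, the telomerase catalytic subunit, gave a log2 fold change of 0.15 among controls (adjusted p = 0.701) and rose among knockouts (log2 2.81), to 14.9 ± 1.88 CPM (SD, n = 3) against 2.09 ± 0.339 in injured controls (edgeR adjusted p = 0.000130). Odc1, of polyamine synthesis, fell by 2.05 on the log2 scale among knockouts (adjusted p = 0.000145). Mybbp1a, a nucleolar protein, rose in both (log2 0.62 and 1.37) and was higher in injured knockouts (log2 0.81, adjusted p = 0.00323). Genes of the MYC target list were called higher in 7 of 22 and lower in 3 between the injured groups, where 22.5% and 24.4% of all genes were.

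Of 19 list genes named here and called among controls, 3 (Maff, Nop58 and Timp1) kept their call with each library left out, against 26 of 28 called among knockouts and 14 of 17 called between the injured groups. The named genes were picked for large called changes in these same data, which favours keeping a call. In sham knockouts against sham controls, edgeR called none of the genes in the 8 lists. Of the list genes named here, DESeq2 called Errfi1 there (adjusted p = 0.00471), and edgeR called Errfi1 (0.0323), Map2k6 (0.00611), Mxd1 (0.0451) and Odc1 (0.0178) when Ctrl library 3 was left out, and Errfi1 without a low-count filter (0.0465). Without Ctrl library 3 the remaining Ctrl libraries were Xist-positive and the PT-KO libraries were not. Sex and genotype cannot be told apart in that fit.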

How the data were processed

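Total RNA of mouse kidney cortex was sequenced in 12 libraries. The authors deposited 1 table of raw counts per Ensembl gene, neither normalized nor filtered, which was used as deposited. Per the labels' processing notes HISAT2 2.0.4 and the mm10 build were used. The counting program, its annotation and its use of strand are not given in the sources used here. Groups came from the labels. The third Ctrl column carries a number that no control sample title has, so only its group was taken and it had no number in common with other libraries. The labels do not say that each library came from a separate mouse, so p-values measure the spread between libraries.

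Symbols, exon lengths and coordinates came from GENCODE (GRCm38), and promoters from RefSeq (GRCm38.p6). Levels are CPM from TMM-adjusted library sizes, with 0.5 CPM added on log2 scales. Genes passing filterByExpr were tested with the quasi-likelihood test of edgeR 4.0.16 (R 4.3.3, limma 3.58.1) on the 6 libraries of each pair of groups, or on all 12 for the interaction, and a gene was called where p, adjusted by Benjamini and Hochberg's method over all genes tested, was under 0.05. The procedure was run on simulated counts in which few genes changed, in random directions. That does not show how it performs where many genes change, as here. Shares were compared by two-sided exact permutation tests. A gene without counts in a group was given a bound from 3 counts per library.

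The 10 genes and all lists were chosen with earlier results of these data known. Besides the 10, the text names up to 2 called genes per list with the largest change in each of 3 comparisons; some results that fall under these rules are not reported here. The comparisons share libraries and are not independent of each other. Replicate numbers did not pair the libraries (median correlation of deviations -0.0258 over 12 pairs with a common number, 1 of them over 0.1). Alternatives were total counts in place of TMM, DESeq2 1.42.0, testing unfiltered genes or those with 10 counts or more throughout, fitting all 12 libraries together, a replicate block, sex as a covariate, and leaving out each library. Low counts limit the precision of Fosb and Fosl1 and, in their lower groups, of list genes such as Il6, Mmp10, Timp1, Mapk10, Egr2 and Lif.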

Additional observations from a re-analysis of the deposited data

Results flagged for a closer look

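Genes of the lists around the 10 factors were marked where the knockout by I/R interaction in edgeR, which compares the response to I/R between genotypes over all 12 libraries, had an adjusted p under 0.05. None of the 10 factors met this. Among 13 named list genes that did, 7 kept the call under each alternative run: Ppp1r15a (log2 2.12, adjusted p = 0.000353), Tert (2.67, 0.00135), Errfi1 (1.56, 0.000178), Mlxip (1.17, 0.000944), Mxd4 (0.71, 0.00209), Nab1 (0.70, 0.00741) and Map2k6 (-1.89, 0.00385). A positive value is a larger log2 fold change after I/R in knockouts than in controls. Over all 16168 genes tested, 30.6% were called in the interaction. The 29 named list genes were picked for large called changes in these same data, so the count of 13 is no measure of the lists.

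Dusp5 (log2 2.64, adjusted p = 0.00590), Odc1 (-1.85, 0.0168) and Mybbp1a (0.76, 0.00880) kept the call with each library left out but lost it under 1 other alternative each. For Dusp5 and Odc1 that was sex as a covariate (edgeR adjusted p = 0.127 and 0.114), and for Mybbp1a the replicate block (0.0592). Klf6 (1.52, 0.0406), Map3k8 (1.46, 0.0383) and Mlx (-0.64, 0.0380) lost it in 7 to 9 of the 12 fits that left out a library. They also lost it with sex as a covariate (edgeR adjusted p = 0.185, 0.0643 and 0.229).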

How the results depend on the processing

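All 10 genes were called higher among knockouts after I/R under each alternative that tested them (8 of 8 with at least 10 counts in every library). Leaving out a library gave 0 to 9 of 10 among controls, 1 to 6 between the injured groups and 0 to 4 for the interaction. Between the injured groups 2 were called with total counts and 2 with the replicate block. For the interaction 3 were called with DESeq2 and 3 without a low-count filter. The cause was not tested, except that leaving out a library leaves fewer samples.

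Over all genes, 1 fit to all 12 libraries called 4938 among controls. PT-KO against Ctrl had 1 with total counts, 458 with DESeq2, 388 without a filter and 1378 with the replicate block. For a pair of groups the block leaves the contrast to libraries whose number occurs in each: 1 and 2 here, 2 and 4 between the injured groups. In PT-KO against Ctrl these were Xist-positive Ctrl libraries against PT-KO libraries that were not. Sex and genotype thus cannot be told apart there with the block, nor without Ctrl library 3. The replicate block called 1683 between the injured groups and 3215 for the interaction, and sex as a covariate 3233. Leaving out a library gave 379 to 4061 among controls, 0 to 1930 for PT-KO against Ctrl (1930 without Ctrl library 3), 4918 to 7509 between the injured groups and 3622 to 5509 for the interaction, whose split was 1591 higher and 2997 lower with total counts. With the replicate block Fosl2 (adjusted p = 0.123) and Fosb (0.616) lost their calls between the injured groups, and so did 10 of 17 list genes named in the text (Maff, Ptgs2, Klf6, Mapk11, Map2k6, Mmp10, Mxd4, Mlxip, Odc1 and Mybbp1a, adjusted p of 0.0546 to 0.371). Mapk10 lost its calls with the block among controls (0.103) and knockouts (0.106), Errfi1 among controls (0.0745), and Mapk11 (0.117) and Mxd4 (0.0587) among knockouts, while Map2k6 (0.0159), Errfi1 (0.0399) and Odc1 (0.00891) were called with it in PT-KO against Ctrl. With total counts Jund, Fosb (0.0652) and Klf6 (0.0712) lost them, and with at least 10 counts in every library Fosb (0.0501). Among controls Jund was called with total counts (0.0351), DESeq2 (0.0135), no filter (0.0189), 1 fit to all libraries (0.0154) and the block (0.0164), Egr1 with the last 3 of these (0.0200, 0.0224 and 0.0294), and Fos with DESeq2 and with no filter (0.0489). There Errfi1 (0.0686) and Mxd4 (0.114) lost their calls with total counts, Mxd4 with no filter (0.0668), and Ptgs2, Mapk10, Errfi1, Mxd1, Mxd4 and Mybbp1a with sex as a covariate (0.0557 to 0.159).

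Log2 signs turned only for differences that had not passed the test. With total counts log2 values became 0.073 for Mlxip among controls, -0.063 for Fosl2, -0.011 for Junb and -0.014 for Jund in PT-KO against Ctrl, -0.056 for Lif and -0.071 for Nop58 between the injured groups, and -0.024 for Egr1 in the interaction. With the replicate block they became 0.15 for Odc1 among controls, 0.013 for Jun and 0.034 for Egr2 between the injured groups, and -0.019 for Egr1 in the interaction. With sex as a covariate they became 0.12 for Mlxip among controls, -0.016 for Jund, 0.74 for Atf3, 1.11 for Myc and -0.035 for Gfer in PT-KO against Ctrl, and -0.34 for Atf3, -0.049 for Egr1 and -0.23 for Myc in the interaction.

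Leaving out a library gave ranges of -0.14 to 0.020 for Mlxip and -0.38 to 0.30 for Odc1 among controls. For PT-KO against Ctrl they were -0.40 to 0.15 for Atf3, -0.69 to 0.058 for Myc, -0.038 to 0.16 for Fosl2, -0.0044 to 0.18 for Jund and -0.034 to 0.33 for Gfer. In injured knockouts against injured controls they were -0.14 to 1.19 for Fos, -0.38 to 0.37 for Jun, -0.038 to 1.02 for Atf3, -0.54 to 0.41 for Creb5, -0.70 to 0.41 for Egr2, -0.87 to 0.14 for Dusp8, -0.72 to 0.11 for Timp1, -0.15 to 0.22 for Cad, -0.29 to 1.07 for Lif, -0.0081 to 0.34 for Nop58 and -0.30 to 0.049 for Mxd1. For the interaction they were -0.40 to 1.28 for Egr1 and -0.0036 to 0.36 for Gfer. The Fosb share difference of -0.14 percentage points became 0.35 without division by length and ranged from -1.15 to 0.54 with a library left out. For 29 list genes in PT-KO against Ctrl or the interaction, whose values are not given here, 50 of 587 recomputed values changed sign.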
